A study of Sus scrofa domesticus with 6 samples.

Results

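A set of 10 genes of the lipid-associated macrophage programme, TREM2, TYROBP, APOE, LPL, FABP4, FABP5, CTSB, GPNMB, SPP1 and LGALS3, was followed in small intestine of Göttingen minipigs after abdominal irradiation. They were taken by gene symbol from a table of 30352 named genes. All 10 members had exactly 1 row, and all 10 passed the filter on low counts, as did 18197 genes in all. The members were chosen from known macrophage biology with values of these same libraries in view, above all those of irradiated against unirradiated intestine, so their levels in that contrast are a description and carry no test.

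Lipid-associated macrophages were described in mouse and human adipose tissue as cells that gather where lipid and dying cells have to be cleared. Their surface receptor TREM2 binds lipids and lipoproteins and signals through the adaptor TYROBP. The same cells take up, carry and hydrolyse fat (APOE, LPL, FABP4, FABP5), enlarge their lysosomes (CTSB, GPNMB) and secrete matrix and carbohydrate-binding proteins (SPP1, LGALS3). In gut tissue several of these genes are also active outside macrophages. LGALS3 is made by enterocytes, FABP4 by capillary endothelium and fat cells, LPL by fat and muscle, and TYROBP by natural killer cells.

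Bulk RNA sequencing covered 6 wild-type animals aged 6 months, with 2 animals and 2 libraries in each of 3 groups. IR_Pra animals received 15 Gy of cobalt-60 gamma radiation to the abdomen and 40 mg of oral pravastatin a day, split into 2 doses, for 2 weeks. IR animals received the same irradiation without the drug, and control animals neither. All tissue was collected on day 14. Pravastatin inhibits cholesterol synthesis. The labels name the drug group both as Pra and as PS, and both were read as pravastatin. Libraries held 48600424 to 73975174 counts. The labels do not say which segment of the small intestine or which wall layers were sampled.

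Library IR 2 stood apart in epithelium. VIL1, a structural protein of the brush border, had 1645 and 1373 CPM (read counts relative to the TMM-scaled total of the library) in IR_Pra, 1308 CPM in IR 1, 122 CPM in IR 2, and 2183 and 1906 CPM in control. The 9 enterocyte markers in the table summed to 1431 CPM in IR 2 and 66496 CPM in IR 1, against 16940 to 24506 CPM in IR_Pra and control. In this sum the IR libraries thus lay on opposite sides of all others. The high sum of IR 1 did not hold for each marker. FABP1 and FABP6 were highest in IR 1, with 660006 and 1137459 counts, but VIL1 was lower there than in every IR_Pra and control library. The 14 macrophage markers summed to 1367 and 2014 CPM in IR_Pra, 3752 and 3900 in IR and 967 and 975 in control. The IR libraries were thus alike in this sum while far apart in the enterocyte sum. The likeness held for the sum and not for every macrophage gene. Outside the sum, CSF1R had 294 CPM in IR 1 and 742 CPM in IR 2, MSR1 30.2 and 94.0 CPM, and MS4A4A 9.58 and 12.5 CPM. In bulk tissue, a different number of cells of a type and a different amount of RNA per cell cannot be told apart.

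TREM2 (Entrez 100737974, chr7:36465921-36471509 on Sscrofa11.1), the lipid-sensing receptor, was nearly silent without irradiation. Its level was 1.78 and 4.75 CPM in IR_Pra, 8.82 and 49.4 CPM in IR, and 0.0346 and 0.286 CPM in control. Every irradiated library lay above both controls, and both IR libraries lay above both IR_Pra libraries. The control level rested on 2 and 18 reads, against 475 and 3742 reads in IR. Summed over the animals of a group, IR had 197 times the scaled count of control (exact 95% interval 127 to 322, which covers counting error only). The fitted log2 fold change of IR against control was 7.47 ± 1.34 (SE). It was 5.72 without IR 2, 6.65 without control 1 and 9.65 without control 2, so its size depended on single animals while its direction did not.

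TYROBP (Entrez 397405, chr6:45309199-45312562), the adaptor that carries the TREM2 signal and also serves several receptors of natural killer cells, was present at a fair level throughout. It had 44.0 and 70.7 CPM in IR_Pra, 116 and 97.1 CPM in IR and 48.5 and 47.8 CPM in control. Both IR libraries were above the other 4, and the IR_Pra and control libraries overlapped. IR against control had a log2 fold change of 1.14 ± 0.29. The receptor and its adaptor therefore differed greatly in the size of the IR difference.

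**Figure D1:**
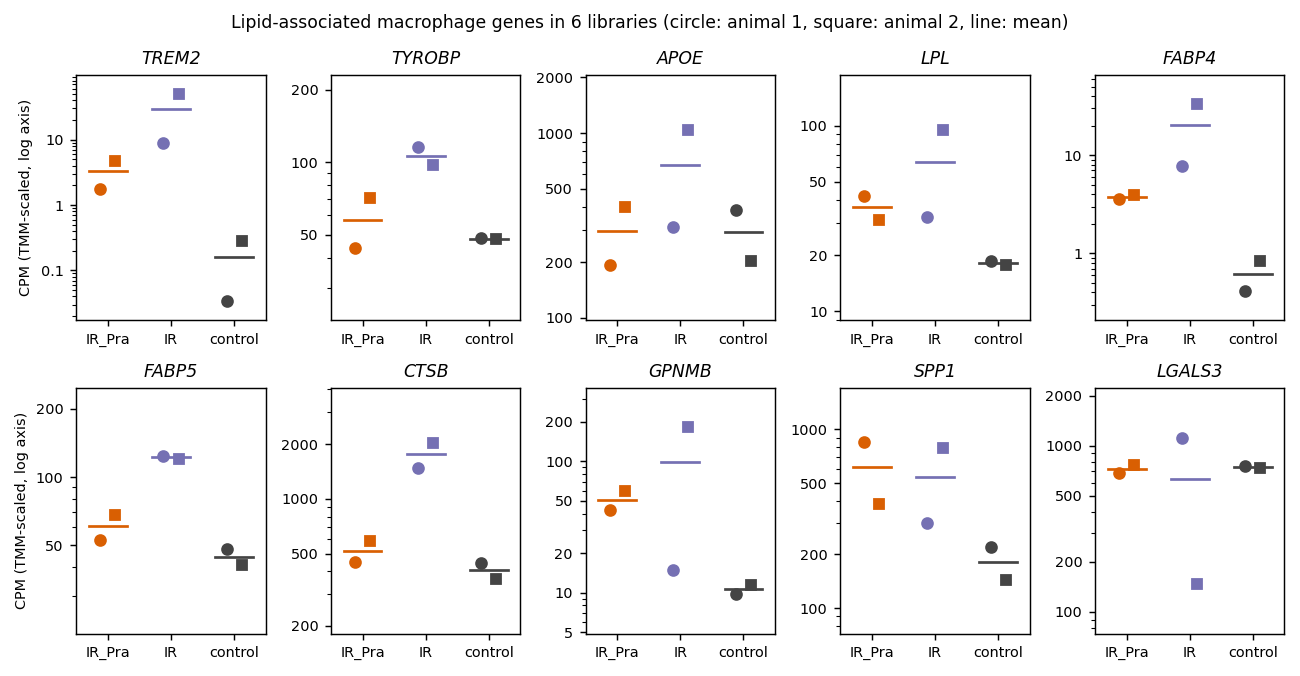
CPM of the 10 genes in each library on log axes, with IR_Pra, IR and control from left to right. Circles are animal 1, squares animal 2 and lines the mean of 2. TREM2 and FABP4 lie above control in all 4 irradiated libraries, CTSB and FABP5 stand highest in both IR animals, and LGALS3 is low in IR 2 alone.

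Among the lipid carriers, FABP4 (Entrez 399533, chr4:55096400-55101209), a fatty acid chaperone of macrophages, fat cells and capillary endothelium, followed the order of TREM2. Its level was 3.61 and 3.94 CPM in IR_Pra, 7.75 and 33.2 CPM in IR and 0.416 and 0.826 CPM in control. The 3 groups did not overlap. The log2 fold change of IR against control was 5.04 ± 0.83, and 3.62 without IR 2.

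FABP5 (Entrez 574074, chr4:55277831-55282585), its epithelial and macrophage paralog on the same chromosome, was the most even of the 10 within IR. It had 53.1 and 68.4 CPM in IR_Pra, 123 and 121 CPM in IR and 48.2 and 41.0 CPM in control. All 3 groups were separate, by a narrow margin between IR_Pra and control. Its log2 fold change of IR against control was 1.45 ± 0.24, with the smallest error of the 10. The sources used here do not say how reads that match both paralogs were counted.

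LPL (Entrez 397537, chr14:4104761-4134964), the lipase that frees fatty acids from lipoprotein triglyceride, had 41.9 and 31.1 CPM in IR_Pra, 32.4 and 94.6 CPM in IR and 18.7 and 17.8 CPM in control. Every irradiated library lay above both controls, and IR_Pra and IR overlapped. The log2 fold change of IR against control was 1.80 ± 0.51, and 0.82 without IR 2.

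APOE (Entrez 397576, chr6:51373113-51375333), a lipoprotein component and a TREM2 ligand, had 194 and 399.7 CPM in IR_Pra, 309.9 and 1037 CPM in IR and 385 and 202 CPM in control. The groups overlapped in all 3 comparisons, and the high mean of IR came from IR 2. In IR against control its log2 fold change was 1.20 ± 0.69, and 0.08 without IR 2.

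Of the lysosomal genes, CTSB (Entrez 100037961, chr14:15014139-15035081), the cysteine protease cathepsin B, was high in both IR animals. It had 449 and 585 CPM in IR_Pra, 1472 and 2042 CPM in IR and 446 and 363 CPM in control. The IR libraries stood clear of the others, and the IR_Pra libraries lay only just above the controls. The log2 fold change of IR against control was 2.12 ± 0.39, and ran from 1.86 to 2.33 when any library was left out.

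GPNMB (Entrez 100049669, chr9:92037428-92071501), a transmembrane glycoprotein of lysosomes and melanosomes, showed another pattern. It had 43.0 and 59.0 CPM in IR_Pra, 14.8 and 182 CPM in IR and 9.76 and 11.4 CPM in control. Both IR_Pra animals were 4.06 and 5.57 times the control mean, while IR 1 was 1.40 times and IR 2 17.2 times that mean. The log2 fold change of IR against control was 3.21 ± 1.06 with both IR animals and 0.48 without IR 2. No other member differed as much between the IR animals, with 12.3 times more in IR 2 than in IR 1.

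The secreted members differed from each other. SPP1 (Entrez 397087, chr8:131077786-131085334), the matrix phosphoprotein osteopontin, had 853 and 381 CPM in IR_Pra, 299.9 and 783 CPM in IR and 219 and 144 CPM in control. All irradiated libraries were above both controls, and the highest value was in IR_Pra 1. In IR against control its log2 fold change was 1.57 ± 0.61, and 0.72 without IR 2.

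LGALS3 (Entrez 100038033, chr1:184478639-184496155), galectin-3, had 683 and 769.9 CPM in IR_Pra, 1114 and 148 CPM in IR and 755 and 737 CPM in control. The 2 IR animals lay on opposite sides of all other libraries, and the sign of the IR difference depended on IR 2, with a log2 fold change of -0.24 ± 0.83 with it and 0.58 without it. LGALS4, a galectin of enterocytes, was low in the same library, with 1147 and 922 CPM in IR_Pra, 1497 and 153 CPM in IR and 951 and 996 CPM in control. EPCAM, an epithelial adhesion protein, had 589 and 614 CPM in IR_Pra, 456 and 67.9 CPM in IR and 754 and 768 CPM in control. The part of the lower epithelial content of IR 2 in its LGALS3 level was not tested.

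In IR against control, 4 of the 10 members (TREM2, FABP4, FABP5 and CTSB) passed an adjusted p of 0.05 in edgeR's quasi-likelihood test and were higher, where 3.39% of all genes passed in that direction. The members were chosen with this contrast in view, so nothing is read from this count. The groups did not overlap, with IR higher, for 8 of 10 members and for 29.8% of all genes, and with IR lower for 0 members and 30% of all genes. The median log2 fold change was 1.69 over the members and 0.03 over all genes tested. The count of members was 7 with DESeq2, where 22.7% of all genes passed, 1 with library size as the only scaling (2.61%) and 0 with limma on log2(FPKM + 1) (2.21%). It was 8 without IR 1, 7 of them higher, where 28.3% of all genes passed, 5 without IR 2 (17.5%), and 0 without either control library or either IR_Pra library (0%).

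**Figure D2:**
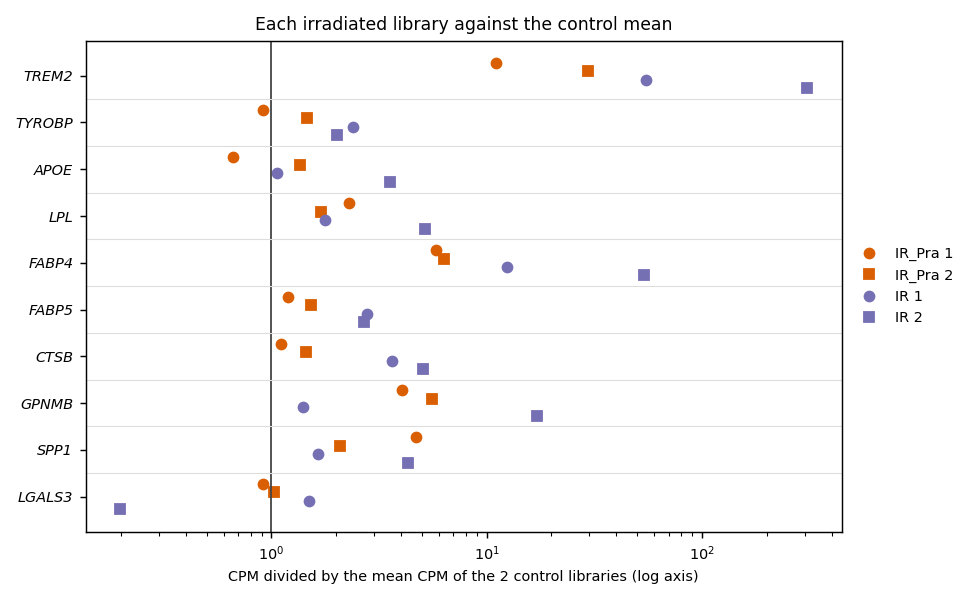
CPM of each gene in the 4 irradiated libraries divided by the mean of the 2 controls, on a log axis. The vertical line marks the control mean. TREM2 runs from 11.09 times in IR_Pra 1 to 308 times in IR 2, while LGALS3 in IR 2 is at 0.199 times.

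The members varied most within IR. IR 2 and IR 1 lay more than 2-fold apart for 7 of 10 members and for 33.3% of all genes tested. IR_Pra 2 and IR_Pra 1 lay that far apart for 3 members (TREM2, APOE and SPP1) and 12.7% of all genes. The controls did so for 1 member, TREM2, and 12.9% of all genes. Of the 7 members that differed between the IR animals, 6 were higher in IR 2 and LGALS3 was higher in IR 1. CTSB, FABP5 and TYROBP were within 2-fold, with 1.39, 0.978 and 0.840 times the IR 1 level in IR 2.

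Library IR 1 also held relatively more of short transcripts. In the decile of tested genes with the shortest transcripts, as implied by count and FPKM (fragments normalised to transcript length and depth), the median log2 ratio to control was 0.62 in IR 1 and 0.03 in IR 2. That decile held TREM2, FABP4, FABP5, LGALS3 and TYROBP. The log2 ratio of LGALS3 in IR 1, 0.58, was close to that median. TYROBP was at 1.26 in IR 1 and 1.012 in IR 2, FABP5 at 1.47 and 1.44, and TREM2 at 5.90 and 8.39. The part of transcript length in these ratios was not tested.

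Levels of different genes were compared per length, in FPKM as deposited. In control, LGALS3 was the highest member with 674 and 668 FPKM, and TREM2 the lowest with 0.0316 and 0.273 FPKM. Between them, APOE (333 and 178 FPKM) and CTSB (228 and 189 FPKM) overlapped, as did LPL (6.05 and 5.92 FPKM) and GPNMB (5.19 and 6.06 FPKM). SPP1, TYROBP and FABP5 followed CTSB in that order without overlap, and FABP4 lay between GPNMB and TREM2.

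In IR the order at the top differed, and most neighbours overlapped. CTSB had 662 and 1086 FPKM, APOE 235 and 928, and LGALS3 869 and 137. TREM2 reached 7.52 and 49.8 FPKM in IR, against 178 and 176 FPKM of its adaptor TYROBP. In IR_Pra, LGALS3 was again highest with 652 and 717 FPKM, and FABP4 (4.22 and 4.49 FPKM) and TREM2 (1.85 and 4.83 FPKM) were lowest and overlapped.

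The level of a member was also set against the macrophages in the tissue, as its share of the summed CPM of 14 macrophage markers, none of them a member. TREM2 equalled 0.130% and 0.236% of that sum in IR_Pra, 0.235% and 1.27% in IR and 0.00358% and 0.0293% in control. FABP4 equalled 0.264% and 0.196% in IR_Pra, 0.206% and 0.852% in IR and 0.0430% and 0.0847% in control. For both genes all 4 irradiated libraries exceeded both controls in this share too. The part of transcript length in the marker sum of IR 1 was not tested.

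The other members did not share that pattern. TYROBP equalled 3.22% and 3.51% of the sum in IR_Pra, 3.08% and 2.49% in IR and 5.01% and 4.90% in control, so its share was lower in every irradiated library. FABP5 shares were also lower, with 3.88% and 3.40% in IR_Pra, 3.29% and 3.09% in IR and 4.98% and 4.20% in control. CTSB equalled 32.9% and 29.0% in IR_Pra, 39.2% and 52.4% in IR and 46.2% and 37.3% in control, and IR and control overlapped. GPNMB equalled 3.15% and 2.93% in IR_Pra, 0.394% and 4.66% in IR and 1.010% and 1.17% in control, so it was above control in both IR_Pra animals and in IR 2 and below it in IR 1.

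**Figure D3:**
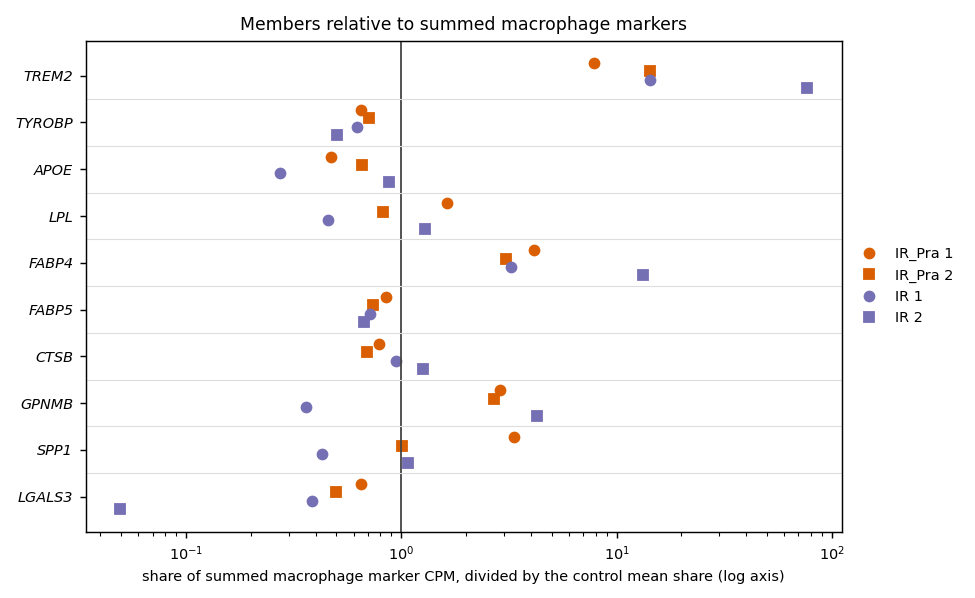
Share of each gene in the summed macrophage marker CPM, divided by the mean share of the 2 controls, for 4 irradiated libraries on a log axis. TREM2 (7.90 to 77.0 times) and FABP4 (3.06 to 13.3 times) lie right of the control line in every library. TYROBP (0.502 to 0.708 times) and FABP5 (0.674 to 0.846 times) lie left of it in every library. So do APOE (0.273 to 0.880 times) and LGALS3 (0.0495 to 0.650 times).

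The comparison of IR_Pra with IR sets irradiated animals with the drug against irradiated animals without it, 2 against 2. It shares the IR libraries with the contrast that led to the members. Lower member levels in IR_Pra may follow from that choice, so they are a description and carry no test. TREM2 averaged 3.26 ± 2.099 CPM in IR_Pra and 29.1 ± 28.7 CPM in IR (SD, n = 2 each), a log2 fold change of -3.16 ± 1.06. FABP4 averaged 3.77 ± 0.232 CPM in IR_Pra and 20.5 ± 18.0 CPM in IR (-2.44 ± 0.72). CTSB averaged 517 ± 95.8 CPM in IR_Pra and 1757 ± 404 CPM in IR (-1.77 ± 0.38). These 3 genes, FABP5 (-1.01 ± 0.24) and TYROBP (-0.89 ± 0.29) had separate groups, with IR_Pra lower.

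The groups did not overlap, with IR_Pra lower, for 5 of 10 members and for 26.6% of all genes, and with IR_Pra higher for 0 members and 27.3% of all genes. LPL (-0.80 ± 0.50), APOE (-1.18 ± 0.69) and GPNMB (-0.95 ± 0.98) had negative estimates with overlapping groups, and SPP1 (0.19 ± 0.60) and LGALS3 (0.20 ± 0.83) had estimates near 0. None of the 10 members passed the adjusted threshold in edgeR, where 0.0055% of all genes passed. At an unadjusted p under 0.05 the count was 5 of 10, where 24.5% of all genes passed, and 4 members passed with DESeq2, where 15.9% of all genes passed. Without IR 2, the log2 fold change was -1.43 for TREM2, -1.03 for FABP4 and -0.06 for APOE. Without that library the GPNMB estimate was 1.79, that of LPL 0.18 and that of LGALS3 -0.62, each with the opposite sign. The count of members past the adjusted threshold was 7 without IR 1 (6 lower), where 19.7% of all genes passed, and 3 without IR 2 (2 lower), where 12.4% passed.

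IR_Pra against control used irradiated animals that IR against control does not, with the same controls. The members were chosen with results of all these libraries known, so this contrast is no independent test of them. TREM2 averaged 3.26 ± 2.099 CPM in IR_Pra and 0.160 ± 0.178 CPM in control, a log2 fold change of 4.31 ± 1.21. FABP4 averaged 3.77 ± 0.232 CPM in IR_Pra and 0.621 ± 0.290 CPM in control (2.60 ± 0.75). GPNMB averaged 51.0 ± 11.3 CPM in IR_Pra and 10.6 ± 1.18 CPM in control (2.27 ± 1.02). SPP1 averaged 617 ± 334 CPM in IR_Pra and 182 ± 53.0 CPM in control (1.76 ± 0.62). The size of these estimates depended on single animals. That of TREM2 was 3.42 without IR_Pra 2, 3.48 without control 1 and 6.48 without control 2, that of FABP4 3.18 without control 2, and that of SPP1 1.06 without IR_Pra 1.

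The remaining estimates of IR_Pra against control were closer to 0. LPL had 0.9996 ± 0.50, FABP5 0.45 ± 0.24, CTSB 0.35 ± 0.37, TYROBP 0.25 ± 0.29, APOE 0.02 ± 0.68 and LGALS3 -0.04 ± 0.83. None of the 10 passed in edgeR's quasi-likelihood test, where 0% of all genes passed and each member had a Benjamini-Hochberg adjusted p of 0.9998. At an unadjusted p under 0.05 the members TREM2, FABP4 and SPP1 passed, where 3.42% of all genes did. DESeq2 called TREM2 alone (adjusted p = 0.0212) among 72 genes in all. The groups did not overlap, with IR_Pra higher, for 7 of 10 members and for 20.8% of all genes, and with IR_Pra lower for 0 members and 20% of all genes. Because of how the members were chosen, nothing is read from these counts.

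**Figure D4:**
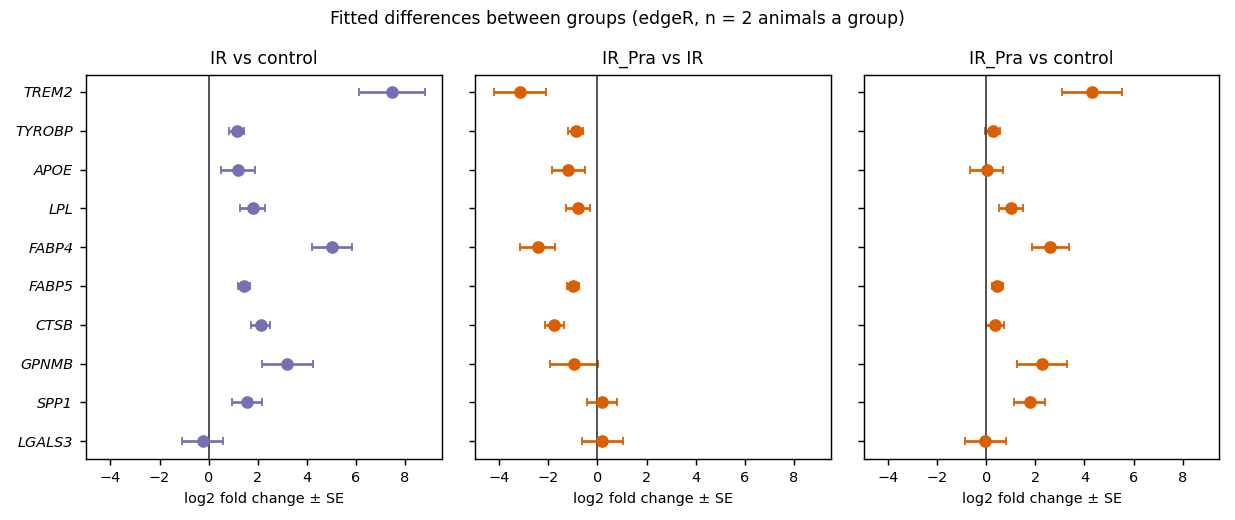
Log2 fold change with its standard error for each gene in the 3 comparisons, fitted to 6 libraries. TREM2 has the largest estimate in IR against control (7.47) and in IR_Pra against control (4.31), and the most negative in IR_Pra against IR (-3.16). The comparisons share libraries and are not independent of each other.

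Other genes of the same pathway were taken from lists made by role, with earlier results of these data known. Their counts and p-values are therefore a description and give no independent support. Of 82 tested, 8 rose and 1 fell in IR against control, beside 3.39% and 2.68% of all genes, and their median log2 fold change was 0.41. The groups did not overlap for 35 with IR higher and 8 with IR lower, beside 29.8% and 30% of all genes. None passed in IR_Pra against IR or in IR_Pra against control in edgeR. There 25 and 5 had an unadjusted p under 0.05 in edgeR, beside 24.5% and 3.42% of all genes. DESeq2 called 18 and 1, beside 15.9% and 0.396% of all genes. The 9 calls of IR against control were 27 with DESeq2, 4 with library size alone, 3 with limma, 31 without IR 1, 23 without IR 2 and 0 without any other library, beside the shares of all genes given for the members. They were 15 with a filter of 5 CPM in 2 libraries, where 9.84% of all genes passed.

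Around the receptor, 2 of 15 genes rose and 1 fell in IR against control, beside 3.39% and 2.68% of all genes. The groups did not overlap for 4 with IR higher and 5 with IR lower, beside 29.8% and 30% of all genes. CARD9, a signalling scaffold of myeloid cells, had 7.78 and 17.1 CPM in IR_Pra, 47.2 and 94.99 CPM in IR and 10.9 and 7.48 CPM in control (IR against control, log2 fold change 2.95 ± 0.54, edgeR adjusted p = 0.0432). MS4A4A, a membrane protein of macrophages, rose by a log2 fold change of 2.27 ± 0.34 (edgeR adjusted p = 0.0370). PLCG2, the phospholipase downstream of TREM2 and of the B cell receptor, went the other way, with 95.3 and 133 CPM in IR_Pra, 30.1 and 37.7 CPM in IR and 147 and 135 CPM in control (-2.06 ± 0.28, edgeR adjusted p = 0.0370).

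SYK, the kinase that docks on phosphorylated TYROBP and also serves B cells, averaged 31.4 ± 16.4 CPM in IR_Pra, 16.1 ± 5.76 CPM in IR and 38.5 ± 10.5 CPM in control (SD, n = 2 each). It did not pass in IR against control (edgeR adjusted p = 0.141). CSF1R, the receptor for the macrophage growth factor, had 152 and 226 CPM in IR_Pra, 294 and 742 CPM in IR and 109 and 81.2 CPM in control and did not pass (edgeR adjusted p = 0.0510). The receptor and its adaptor were thus higher in both IR animals than in control, and PLCG2 and SYK were lower in both.

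Of 24 genes of lipid uptake, storage and export, IR and control did not overlap for 8 with IR higher and 1 with IR lower. The shares of all genes were 29.8% and 30%. Of the 24, 1 rose in IR against control, beside 3.39% of all genes. It was MSR1, a scavenger receptor for modified lipoprotein, with 19.9 and 24.0 CPM in IR_Pra, 30.2 and 94.0 CPM in IR and 5.75 and 9.83 CPM in control (2.995 ± 0.60, edgeR adjusted p = 0.0480). The scavenger receptor CD36 (0.50 ± 0.32), the cholesterol exporter ABCA1 (0.17 ± 0.73), the oxysterol receptor NR1H3 (-0.13 ± 0.32) and the fatty acid receptor PPARG (0.75 ± 0.54) did not pass. PLTP, a phospholipid carrier of plasma, had an estimate of 3.13 ± 0.72 and did not pass (edgeR adjusted p = 0.0586). FABP3, another member of the fatty acid binding family, had 40.3 and 65.1 CPM in IR_Pra, 64.8 and 44.3 CPM in IR and 42.8 and 27.6 CPM in control.

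Of 28 lysosomal genes, 3 proteases rose in IR against control and none fell, beside 3.39% and 2.68% of all genes, and the list's median log2 fold change was 0.83, against 0.03 over all genes. CTSL, the cysteine protease cathepsin L, had 11.7 and 16.7 CPM in IR_Pra, 26.99 and 26.98 CPM in IR and 4.52 and 4.24 CPM in control (2.62 ± 0.29, edgeR adjusted p = 0.0359). LGMN, an asparagine-specific protease, rose by a log2 fold change of 2.08 ± 0.36 and CTSZ, cathepsin Z, by 1.81 ± 0.35 (edgeR adjusted p = 0.0408 and 0.0467). The groups did not overlap for 18 of the 28 with IR higher and 2 with IR lower, beside 29.8% and 30% of all genes. MITF, TFEB and TFE3, the related transcription factors of lysosomal genes, had estimates of 0.23 ± 0.66, 0.28 ± 0.28 and 0.38 ± 0.24 and did not pass.

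Among 8 SPP1 receptors, 1 rose in IR against control, beside 3.39% of all genes. It was ITGA5, an integrin chain, with 267 and 199.7 CPM in IR_Pra, 504 and 1304 CPM in IR and 105 and 128 CPM in control (2.96 ± 0.52, edgeR adjusted p = 0.0422). CD44, a receptor for hyaluronan and SPP1, did not pass (0.40 ± 0.30). Among 7 other galectins, 1 rose too. It was LGALS1, a galectin of stroma and macrophages, with 196 and 222 CPM in IR_Pra, 669 and 922 CPM in IR and 83.1 and 119 CPM in control (2.98 ± 0.35, edgeR adjusted p = 0.0359). IR and control did not overlap, with IR higher, for 3 of the receptors and 2 of the galectins, beside 29.8% of all genes. With IR lower they did so for 0 of either list, beside 30%. LGALS1 was high in both IR animals, whereas LGALS3 and LGALS4 were highest in IR 1 and low in IR 2 alone.

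Markers of the cell types that also express members were read beside them. The marker lists too were made with earlier results of these data known, so their counts and p-values are a description. Of 14 macrophage markers 9 rose in IR against control and none fell, beside 3.39% and 2.68% of all genes. Their median log2 fold change was 2.12, against 0.03 over all genes. The groups were separate for 13 with IR higher and 0 with IR lower, beside 29.8% and 30% of all genes. CD68, a lysosomal glycoprotein of macrophages, had 41.5 and 67.5 CPM in IR_Pra, 63.2 and 94.6 CPM in IR and 23.3 and 24.0 CPM in control (1.74 ± 0.34, edgeR adjusted p = 0.0465). CD14, the lipopolysaccharide co-receptor, rose by a log2 fold change of 3.08 ± 0.63, and the haemoglobin scavenger receptor CD163 (4.07 ± 0.30), the complement chain C1QA (2.60 ± 0.33) and the complement receptor VSIG4 (4.52 ± 0.65) rose too. In IR_Pra against control none of them passed, their median was 0.98, and the groups were separate for 8 with IR_Pra higher and 1 with IR_Pra lower, beside 20.8% and 20% of all genes. The 1 lower was ITGAM, an integrin chain of myeloid cells, named after its values were seen.

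Fat cells express FABP4 and LPL. Of the 10 fat cell markers on the list, ADIPOQ, LEP and PLIN1 were at or near 0. ADIPOQ had 0 counts in 5 libraries and 4 counts in control 1, LEP had 0 counts in all 6, and PLIN1 had 0.270 and 1.09 CPM in IR_Pra, 0.873 and 0.277 CPM in IR and 0.606 and 0.476 CPM in control. The 10 markers of the list summed to 269 and 326 CPM in IR_Pra, 538 and 251 CPM in IR and 371 and 508 CPM in control, and 0 of 8 tested passed in any comparison. Nearly all of the sum came from the markers other than ADIPOQ, LEP and PLIN1. The sum was lowest in IR 2, and FABP4 and LPL were highest in that library. Since the sum rests on those other markers, no fat cell content is read from it. The part of fat cells in the levels of FABP4 and LPL was not tested.

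Capillary endothelium, another source of FABP4, was present in all libraries. Its 8 markers summed to 320.5 and 295 CPM in IR_Pra, 387 and 469.7 CPM in IR and 312 and 210.1 CPM in control, and 0 of 8 passed in IR against control, where the median was 0.70 and 5 had separate groups with IR higher and 0 with IR lower, beside 29.8% and 30% of all genes. PECAM1, an endothelial adhesion protein, had 69.3 and 59.3 CPM in IR_Pra, 53.0 and 93.3 CPM in IR and 51.7 and 39.1 CPM in control. CDH5, the endothelial cadherin, had 35.5 and 25.5 CPM in IR_Pra, 22.8 and 39.0 CPM in IR and 28.7 and 23.4 CPM in control. The part of endothelium in the level of FABP4 was not tested.

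Among the marker lists, that of enterocytes differed most between the IR animals. FABP1, the liver-type fatty acid carrier of enterocytes, had 892 and 426 CPM in IR_Pra, 12260 and 110.0 CPM in IR and 149 and 91.1 CPM in control, and FABP2, the intestinal carrier, had 254 and 257 CPM in IR_Pra, 444 and 17.2 CPM in IR and 107 and 219 CPM in control. Unlike these enterocyte paralogs, FABP4 was higher in IR 2 than in IR 1, and FABP5 was about equal in both.

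The mean profile of the 10 members over the 6 libraries, as log2 CPM centred on each gene's mean, was closest to that of LGI3, IL1A, PTPRO, LOC100624077 (annotated in the table as an endogenous retroviral envelope protein) and TAC1 among 15022 other genes. Their Euclidean distances were 0.326 to 0.421, against a median of 2.50 over those genes. The members themselves lay 0.890 (LPL) to 5.36 (TREM2) from their own mean, so that mean describes no member closely. IL1A, the cytokine interleukin-1 alpha, had 1.60 and 1.56 CPM in IR_Pra, 1.86 and 3.61 CPM in IR and 0.554 and 0.651 CPM in control.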

How the data were processed

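The authors deposited read counts and FPKM values per gene and library, per the file headers. Per the submitters' processing notes, reads were made with bcl2fastq 2.20.0, trimmed with Trimmomatic, aligned with HISAT2 2.1.0 and assembled with StringTie 2.1.3b. The build is Sscrofa11.1 (GRCh38 is also named, with no role). The sources used here do not say how counts were made or whether strand was used. All 30352 named rows matched RefSeq by Entrez ID, and 24 unnamed rows (0.00906% to 0.0385% of counts) were left out.

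Counts were fitted in R 4.3.3 with edgeR 4.0.16 (filterByExpr, TMM, quasi-likelihood F test, 3 residual degrees of freedom, common biological coefficient of variation 0.431). All 6 libraries entered 1 fit, with Benjamini-Hochberg adjustment across the 18197 genes tested. Standard errors are derived from the F statistic. The fit was run on simulated counts that varied less between libraries than these data. That run therefore does not show how the fit performs here. An exact permutation test of 2 against 2 animals cannot go below p = 0.333 and was not used. Alternatives used DESeq2 1.42.0, limma 3.58.1, other scalings and filters, and left out each library in turn.

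Members and lists were chosen with earlier results of these data known. The text names all members, up to 3 genes of a list with the smallest p among those that passed, a set of genes always named (among them PPARG, MITF, SYK, CD44, FABP1, ADIPOQ and PECAM1), and the 5 genes of nearest profile with a mean of at least 1 CPM (prior count 2). LGALS4, PLTP, FABP3, CD36, ABCA1, VIL1, EPCAM, ITGAM and LEP were named after their values were seen.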

Additional observations from a re-analysis of the deposited data

How the results depend on the processing

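No alternative turned the direction of TREM2, FABP4, FABP5, LPL, GPNMB, SPP1, CTSB, TYROBP or APOE in IR against control. With DESeq2 the counts past the threshold were 7 members, 27 pathway genes and 4131 genes in all in IR against control (4, 9 and 1103 in edgeR), 4, 18 and 2885 in IR_Pra against IR (0, 0 and 1 in edgeR), and 1, 1 and 72 in IR_Pra against control (0 each in edgeR). With library size alone the counts in IR against control were 1, 4 and 475, with 182 of the 475 higher (616 of 1103 with TMM), and 2 genes passed in IR_Pra against IR, where this scaling moved the median log2 fold change of all genes to 0.14. With limma on log2(FPKM + 1) the counts in IR against control were 0, 3 and 403. A filter of 5 CPM gave 15 pathway genes there, and no filter gave 2 genes in all in IR_Pra against IR.

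With the replicate number as a block, which pairs separate animals by number only, 0 members, 0 pathway genes and 0 genes passed in IR against control, and 0 genes in IR_Pra against IR. Deviations of same-numbered libraries correlated across genes at 0.08 (IR and control), -0.09 (IR_Pra and IR) and -0.11 (IR_Pra and control).

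When each library was left out in turn, the counts ran from 0 to 8 members, 0 to 31 pathway genes and 0 to 5342 genes in IR against control, from 0 to 7, 0 to 25 and 0 to 3728 in IR_Pra against IR, and stayed at 0 in IR_Pra against control. A group that lost 1 library was assumed to vary like the others.

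Some log2 fold changes crossed 0. In IR against control, LGALS3 ran from -2.33 without IR 1 to 0.58 without IR 2. In IR_Pra against IR, the ranges over libraries left out were -1.37 to 0.18 for LPL, -1.83 to 1.79 for GPNMB, -0.54 to 1.04 for SPP1 and -0.62 to 2.30 for LGALS3, and GPNMB was 0.092 on the FPKM scale. In IR_Pra against control, the ranges were -0.59 to 0.53 for APOE, -0.13 to 0.033 for LGALS3 and -0.13 to 0.54 for TYROBP, APOE was -0.19 with the block, and LGALS3 was 0.029 with library size alone and 0.028 on the FPKM scale. The cause was not tested. The legacy form of the edgeR fit, added after seeing the data, gave 4 members, 7 pathway genes and 790 genes in IR against control. TREM2 in control rested on 2 and 18 reads, which limits the precision of its fold change.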

Other observations

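Markers of further cell types also moved between the groups. Their lists were made with earlier results of these data known as well. GFAP, a filament of enteric glia, rose to 29.6 and 42.8 CPM in IR, against 2.49 and 2.14 CPM in control (log2 fold change 3.97 ± 0.33, edgeR adjusted p = 0.0331), and ERBB3, a receptor of glia and epithelium, fell to 175 and 65.6 CPM in IR, against 789.7 and 908 CPM in control (-2.82 ± 0.52, edgeR adjusted p = 0.0439). Of 7 glia markers these 2 passed, 1 higher and 1 lower, beside 3.39% and 2.68% of all genes. The fast muscle myosin MYH2 rose to 1.75 and 3.97 CPM in IR, against 0.0346 and 0.127 CPM in control (5.09 ± 0.85, edgeR adjusted p = 0.0391). MYH1, another, rose to 1.80 and 3.51 CPM in IR, against 0.0519 and 0.254 CPM in control (4.08 ± 0.82, edgeR adjusted p = 0.0487). These were 2 of 6 muscle markers tested, beside 3.39% of all genes, and the other 4 did not pass. All 6 estimates were positive, with a median log2 fold change of 3.13, against 0.03 over all genes. The list summed to 203 and 137 CPM in IR_Pra, 345 and 391 CPM in IR and 39.5 and 123 CPM in control. The part of muscle in the level of LPL was not tested.

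The 6 fibroblast markers summed to 6849.6 and 4642 CPM in IR_Pra, 7921 and 24596 CPM in IR and 1825 and 3135 CPM in control, and none passed in IR against control. COL1A1, the main collagen chain, had 2532 and 8944 CPM in IR, against 338 and 683 CPM in control (edgeR adjusted p = 0.0613). Of 6 natural killer cell markers, 1 fell in IR, beside 2.68% of all genes. It was KLRK1, an activating receptor (-1.63 ± 0.31, edgeR adjusted p = 0.0456). Estimates were positive for 2 of the 6. The list summed to 66.3 and 61.4 CPM in IR and 69.8 and 112 CPM in control. The adaptor TYROBP was higher in IR, and the part of natural killer cells in its level was not tested. The 6 neutrophil markers summed to 15.9 and 47.3 CPM in IR and 6.75 and 2.79 CPM in control, and 0 of 4 tested passed.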
